A study of Mus musculus with 18 samples.

Results

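The secreted products of the mouse intestinal epithelium that are not α-defensins were followed here: *Lyz1*, *Mmp7*, *Pla2g2a*, *Ang4*, *Itln1*, *Retnlb*, *Reg3b*, *Reg3g*, *Reg3a* and *Reg4*. These 10 genes were taken by symbol from the 55487 genes counted in the ileum of 18 mice, with 1 library per mouse. The 6 controls lacked *Villin-CreERT2*, and the 6 heterozygous and 6 homozygous IEC-*Ppara* mice carried *Villin-CreERT2* with 1 or 2 copies of the CAG-*Ppara*,-*EGFP* allele, which sits in the *Col1a1* locus. Controls also carried the CAG-*Ppara*,-*EGFP* allele, but without Cre. All mice received tamoxifen (100 mg/kg, 3 daily injections, at 8 to 13 weeks of age), ate chow and were collected 2 weeks after the last injection. The transgenic strain was established from 1 targeted clone, and *Villin-CreERT2* drives recombination in the whole intestinal epithelium and not in Paneth cells alone. The labels give 3 females among the controls and 2 among each of the IEC-*Ppara* genotypes, the rest being males. The comparisons ask whether the level of these genes differed when epithelial PPARα was raised, and between its 2 allele doses.

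Paneth cells sit at the base of small intestinal crypts, beside the stem cells, and release granules that hold lysozyme, α-defensins, a secretory phospholipase and the C-type lectins of the Reg family into the crypt lumen. Enterocytes add *Reg3b* and *Reg3g* along the villus when interleukin-22 or bacterial signals reach them through STAT3, and goblet cells add resistin-like molecule β. Together these proteins keep bacteria away from the epithelial surface.

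The transcript of the transgene, *Ppara*, checks the labels of controls against those of IEC-*Ppara* mice. In CPM (counts scaled to 1000000 per library), it stood at 25.8 to 47.4 in control, 107 to 196 in heterozygous and 184 to 279 in homozygous libraries. The heterozygous and homozygous ranges overlapped (unadjusted p = 0.00303, adjusted p = 0.485, edgeR), so *Ppara* does not check these 2 labels in every library. Each library held 38528522 to 50376371 counts, and even the rarest of the steadily detected members, *Pla2g2a*, held 1358 counts or more in every library. Full-thickness tissue was taken, and epithelium, smooth muscle and immune cells were all in the libraries. The 12 epithelium markers (*Epcam*, *Cdh1*, *Vil1* and others) were present in every library and summed to between 14960 and 19757 CPM. The 10 smooth muscle markers spread far more, with sums of 682 to 6140 in control, 852 to 4510 in heterozygous and 4157 to 9690 CPM in homozygous libraries. In whole tissue, fewer cells of a type and less RNA per cell cannot be told apart.

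Positions are those of GRCm38 as the count files give them. *Lyz1* (ENSMUSG00000069515) lies at chr10:117287797-117292868 on the minus strand, *Mmp7* (ENSMUSG00000018623) at chr9:7692090-7699585 on the plus strand and *Pla2g2a* (ENSMUSG00000058908) at chr4:138831857-138835186 on the plus strand. *Ang4* (ENSMUSG00000060615) lies at chr14:51763878-51773590 and *Itln1* (ENSMUSG00000038209) at chr1:171518122-171535294, both on the minus strand, and *Retnlb* (ENSMUSG00000022650) at chr16:48816856-48818892 on the plus strand. *Reg4* (ENSMUSG00000027876) stands alone at chr3:98222156-98236748 on the plus strand. The remaining 3 Reg genes share a cluster on chromosome 6, with *Reg3b* (ENSMUSG00000071356) at chr6:78370657-78373466 and *Reg3a* (ENSMUSG00000079516) at chr6:78380709-78383827 on the plus strand and *Reg3g* (ENSMUSG00000030017) at chr6:78466269-78468872 on the minus strand. Of the 10 genes, 9 are annotated as protein-coding, and *Pla2g2a* is annotated as a polymorphic pseudogene, of which the C57BL/6 strain is known to carry a disrupted copy.

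The promoters of *Reg3b* and *Reg3g* are shown because these 2 genes moved together more closely than any other pair of members (r = 0.948 over the 18 libraries), and that of *Lyz1* because it was the member whose homozygous and heterozygous libraries did not overlap. The sequences come from RefSeq (GRCm38.p6), run 5′ to 3′ from 250 bases before to 50 bases after the RefSeq transcription start, and were matched for 8 of the 10 members. Capitals in *Reg3b* and *Reg3g* mark the run of 14 or more bases that both share, and capitals in *Lyz1* mark AGGTCA, the half-site that nuclear receptors such as PPARα recognise.
Reg3b (chr6:78370635-78370934, plus strand): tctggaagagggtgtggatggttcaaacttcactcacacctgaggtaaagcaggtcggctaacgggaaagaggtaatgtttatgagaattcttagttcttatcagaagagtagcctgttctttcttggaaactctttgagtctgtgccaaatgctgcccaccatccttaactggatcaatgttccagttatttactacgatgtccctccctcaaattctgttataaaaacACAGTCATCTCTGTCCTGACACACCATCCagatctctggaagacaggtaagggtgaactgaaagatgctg
Reg3g (chr6:78468825-78469124, minus strand): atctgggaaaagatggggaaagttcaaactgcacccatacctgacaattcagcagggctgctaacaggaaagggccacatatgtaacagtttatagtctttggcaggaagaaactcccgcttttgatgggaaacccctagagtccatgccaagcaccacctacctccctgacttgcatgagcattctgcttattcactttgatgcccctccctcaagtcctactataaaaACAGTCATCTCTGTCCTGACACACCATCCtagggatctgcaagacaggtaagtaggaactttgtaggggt
Lyz1 (chr10:117292819-117293118, minus strand): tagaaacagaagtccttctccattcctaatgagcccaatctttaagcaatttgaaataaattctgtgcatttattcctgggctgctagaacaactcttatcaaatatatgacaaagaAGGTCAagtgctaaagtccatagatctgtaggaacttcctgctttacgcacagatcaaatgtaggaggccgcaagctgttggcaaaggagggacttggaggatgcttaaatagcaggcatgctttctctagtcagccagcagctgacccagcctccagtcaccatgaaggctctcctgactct

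Over 296 aligned bases the *Reg3b* and *Reg3g* promoters were 69.9% identical, and their longest shared run, of 29 bases, began 20 bases before the start in both. The *Reg3a* promoter was 73.7% identical to that of *Reg3g* over 243 aligned bases, with a longest run of 14 bases, and 68.2% identical to that of *Reg3b* over 236 bases. The members' promoters were searched on both strands for 4 motifs. TTCNNNGAA, the spacing that STAT dimers bind, occurred in *Reg3b* (first base at -129 from the start) and *Ang4* (at -192), and in 8.3% of all 32851 promoters of this length. TATAAA occurred in *Reg3b*, *Reg3g* and *Mmp7*, against 13.6% of all promoters, and its copies nearest the start began at -29, -27 and -26, just ahead of the shared run in both Reg genes. AGGTCA occurred in *Lyz1* alone among the matched members (at -133), against 16.3% of all promoters, and the direct repeat of AGGTCA with a spacer of 1 base, the full PPAR element, occurred in no member and in 0.0396% of all promoters. These are letter matches in 300-base windows and were not tested as binding sites.

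Of the 10 members, *Lyz1*, *Reg3b*, *Itln1*, *Reg3g* and *Ang4* had median ranks of 6, 8, 17, 30 and 53 by level per length. *Reg4*, *Mmp7* and *Reg3a* had median ranks of 292, 337 and 503. These ranks are among the 12645 protein-coding genes tested and not among all genes counted. The 10 members together took 1.41% to 2.31% of all counts in controls, 1.49% to 2.18% in heterozygous and 1.24% to 2.05% in homozygous libraries. Levels were compared between genes per length, as FPKM (CPM per kilobase of transcript). *Lyz1* stood highest with a median of 5143 FPKM over the 18 libraries, and ranked from 4 to 7 among the 12645 genes in every library. *Reg3b* followed at a median of 4154 FPKM, but the order of these 2 is not settled, because *Lyz1* was above *Reg3b* in 10 of 18 libraries. Below them came *Itln1* at 1926, *Reg3g* at 1019 and *Ang4* at 618 FPKM. *Itln1* exceeded *Reg3g* in 17 of 18 libraries, and *Reg3g* exceeded *Ang4* in 15. *Reg4* (median 138 FPKM), *Mmp7* (117 FPKM) and *Reg3a* (87.3 FPKM) formed a lower tier whose neighbours overlapped, with *Reg4* above *Mmp7* in 12 of 18 libraries and *Mmp7* above *Reg3a* in 15. *Pla2g2a* was at 54.5 FPKM, below *Reg3a* in all 18 libraries. *Retnlb* was nearly silent at a median of 0.670 FPKM, and held 0 to 251 counts per library.

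**Figure D1:**
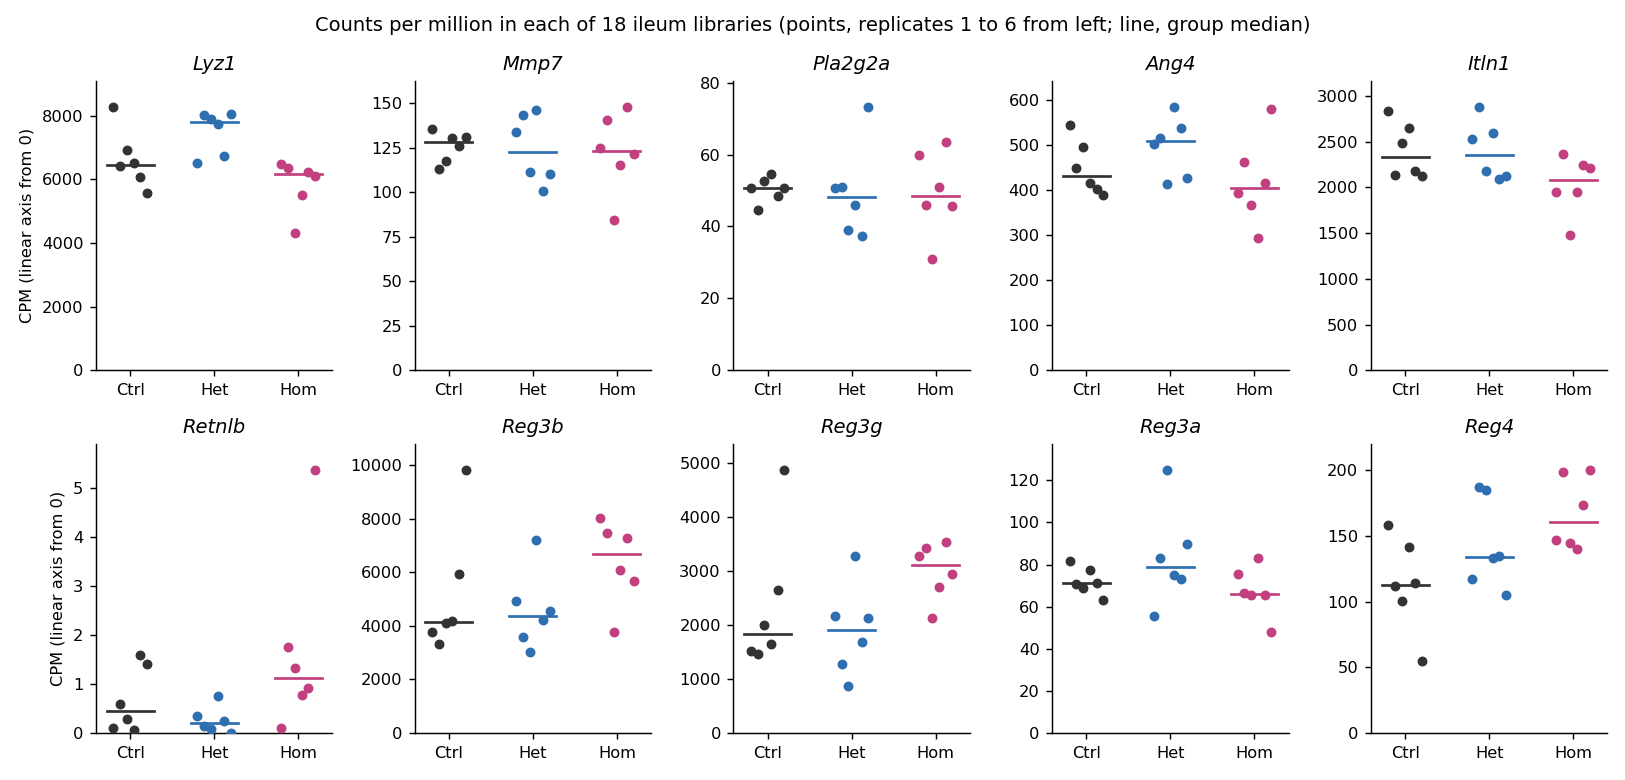
CPM (linear axes from 0) of the 10 genes in each control (Ctrl), IEC-*Ppara* heterozygous (Het) and homozygous (Hom) library, with points for replicates 1 to 6 from left to right and a line at the group median. *Lyz1* differs from the others in that its homozygous points (highest 6480 CPM) lie wholly below its heterozygous points (lowest 6512 CPM), and control replicate 6 stands highest for *Reg3b* and *Reg3g* and lowest for *Reg4*.

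Across genotypes, none of the 8 members in the edgeR fit passed an adjusted p of 0.05 in any of the 3 comparisons, in edgeR or in DESeq2. Over all 12645 protein-coding genes tested, edgeR called 0.411% (52 genes) between homozygous and control, 0.293% (37 genes) between heterozygous and control and 0.00791% (1 gene) between homozygous and heterozygous mice. At an unadjusted p under 0.05, edgeR had 1 of the 8 members for homozygous against control (*Reg4*), where 8.06% of all genes had such a p. It had 0 of 8 for heterozygous against control, against 5.29% of all genes, and 3 of 8 for homozygous against heterozygous (*Lyz1*, *Reg3a* and *Itln1*), against 7.61%. Without control replicate 6 the members' counts were 3, 0 and 5, where 901, 787 and 1179 of all genes had such a p. Without heterozygous replicate 1 the count for heterozygous against control was 3, where 706 of all genes had such a p. DESeq2 had 2, 1 and 3 members at this level, where 8.79%, 5.73% and 8.95% of all genes had such a p, and it called 1.08%, 0.648% and 0.0712% of all genes at an adjusted p under 0.05. The median log2 fold change of the 8 members was -0.06, 0.10 and -0.15 in these comparisons, and that of all genes tested was -0.0048, -0.0058 and -0.00014. The members' medians moved with single libraries. Without homozygous replicate 3 they were 0.0073 for homozygous against control and -0.059 for homozygous against heterozygous mice. Without control replicate 6 the median was 0.16 for heterozygous against control mice. *Pla2g2a* and *Retnlb* were outside the fit, as a pseudogene and as a gene above 3 CPM in 1 library only, and were compared by exact permutation of the libraries.

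**Figure D2:**
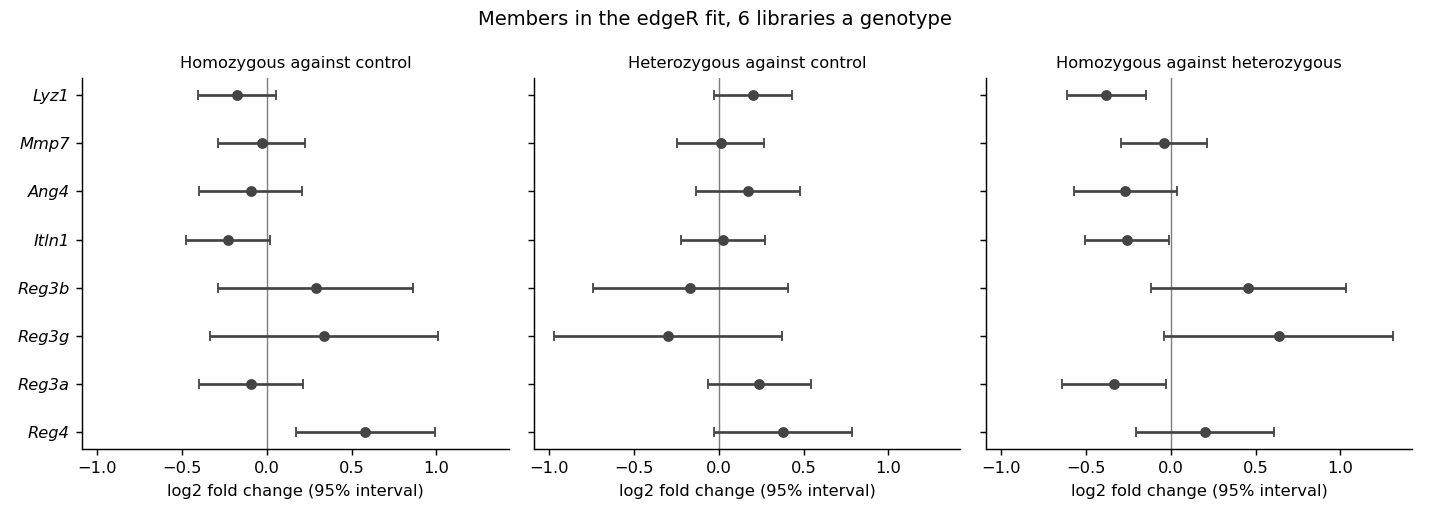
Log2 fold changes of the 8 members in the edgeR fit (points) with their 95% intervals (bars) in the 3 comparisons of 6 libraries against 6. The interval lies wholly on one side of 0 for *Reg4* in homozygous against control and for *Lyz1*, *Itln1* and *Reg3a* in homozygous against heterozygous mice, and no adjusted p was under 0.05.

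*Lyz1*, the lysozyme of Paneth cell granules that cleaves bacterial peptidoglycan, ranged from 5571 to 8266 CPM in controls (median 6464), from 6512 to 8040 CPM in heterozygous (median 7817) and from 4320 to 6480 CPM in homozygous mice (median 6161). Means were 6628 ± 924, 7490 ± 684 and 5833 ± 813 CPM (SD, n = 6 each). Controls spanned the range of the heterozygous group and overlapped the upper part of the homozygous one, while every homozygous library was below every heterozygous one. Such a separation occurred in 0.269% of all genes tested in this comparison. Homozygous against heterozygous mice differed by a log2 fold change of -0.38 ± 0.11 (SE), with a 95% interval of -0.61 to -0.15, an unadjusted p of 0.00286 and an adjusted p of 0.482 in edgeR. Against controls, the interval was -0.41 to 0.05 for homozygous mice (log2 fold change -0.18, adjusted p = 0.710, edgeR, and -0.096 without homozygous replicate 3 or -0.10 without control replicate 1) and -0.03 to 0.43 for heterozygous mice (0.20, adjusted p = 1.00). The means of the 2 IEC-*Ppara* genotypes thus lay on opposite sides of the control mean.

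The *Lyz1* difference between the IEC-*Ppara* genotypes had an unadjusted p of 0.00738 or less whichever library was left out and kept its direction in all 11 alternative fits, with log2 fold changes of -0.39 to -0.31. With the smooth muscle score as a covariate it was -0.34 (unadjusted p = 0.0118, edgeR), and with the epithelium score -0.31 (unadjusted p = 0.00431, edgeR). Homozygous replicate 3, which held the lowest *Lyz1* (4320 CPM), also held the highest summed smooth muscle markers (9690 CPM) and the lowest summed epithelium markers (14960 CPM) of its group. Without it, the log2 fold change was -0.30. The paralog *Lyz2*, expressed by macrophages, shares 16.1% of the 50-base windows of *Lyz1* and no window of 150 bases, the read length of this study. *Lyz1* stood above *Lyz2* by 9.80 to 24.5 times in controls, 12.8 to 25.8 times in heterozygous and 4.63 to 22.7 times in homozygous mice. These ratios overlapped widely, and the exact permutation p-values of the 3 comparisons were 0.171 to 0.528.

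*Mmp7*, matrilysin, which cleaves pro-α-defensins to their active form in mouse Paneth cells, had medians between 123 and 128 CPM in the 3 genotypes. It ranged from 113 to 135 CPM in controls (median 128), 100.7 to 146 CPM in heterozygous (median 123) and 84.4 to 148 CPM in homozygous mice (median 123). Every group overlapped the others, and the IEC-*Ppara* groups spread to both sides of the controls. The 95% intervals of its log2 fold change were -0.29 to 0.23 for homozygous against control, -0.25 to 0.27 for heterozygous against control and -0.30 to 0.22 for homozygous against heterozygous mice.

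*Pla2g2a* encodes the secretory group IIA phospholipase in strains that have an intact copy. Its transcript was still counted at 44.6 to 54.7 CPM in controls (median 50.7), 37.3 to 73.2 CPM in heterozygous (median 48.3) and 30.9 to 63.4 CPM in homozygous mice (median 48.6). The group means, 50.3 ± 3.50, 49.5 ± 12.9 and 49.5 ± 11.7 CPM (SD, n = 6 each), differed by less than 1 CPM, while the spread within the IEC-*Ppara* groups was wider than within controls. Two-sided exact permutation tests gave p-values of 0.900 or above in all 3 comparisons.

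*Ang4*, an angiogenin of the ribonuclease A family that kills bacteria, ranged from 391 to 545 CPM in controls (median 433), 414 to 585 CPM in heterozygous (median 509) and 294 to 581 CPM in homozygous mice (median 405). The homozygous group held both the lowest library of all and one close to the highest. Its log2 fold change was -0.27 ± 0.15 (SE) between homozygous and heterozygous mice, with a 95% interval of -0.57 to 0.04 and an adjusted p of 0.644 in edgeR. With a library left out it ranged from -0.39 to -0.18, the latter without homozygous replicate 4 (unadjusted p = 0.198, edgeR). In 2 of these 18 fits the unadjusted p was under 0.05. *Ang4* shares 4.70% of its 50-base windows with *Ang2* and *Ang5*, and no window of 150 bases with any other gene. The family genes *Ang* and *Rnase4* were lower in mean CPM in homozygous mice as well. *Ang* averaged 30.1 CPM in controls, 30.6 CPM in heterozygous and 23.9 CPM in homozygous mice, with a log2 fold change of -0.38 between the IEC-*Ppara* groups (unadjusted p = 0.0101, adjusted p = 0.596, edgeR).

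*Itln1*, intelectin 1, a lectin of Paneth and goblet cells that binds microbial glycans, ranged from 2122 to 2836 CPM in controls (median 2336), 2097 to 2877 CPM in heterozygous (median 2355) and 1481 to 2362 CPM in homozygous mice (median 2082). The first 2 groups were nearly alike in range, and the homozygous libraries reached lower while still overlapping both. Its log2 fold change was -0.26 ± 0.12 (SE) between homozygous and heterozygous mice (95% interval -0.51 to -0.01, unadjusted p = 0.0427, adjusted p = 0.642, edgeR) and -0.23 ± 0.12 between homozygous and control mice (adjusted p = 0.639). Without homozygous replicate 3, the lowest library at 1481 CPM, the difference from heterozygous mice was -0.17 and that from controls -0.15 (unadjusted p = 0.104 and 0.159, edgeR).

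*Retnlb*, the resistin-like molecule β that goblet cells release on type 2 cytokine signals, was at the limit of detection, with 0.0519 to 1.60 CPM in controls, 0 to 0.751 in heterozygous and 0.0931 to 5.38 in homozygous mice. Group means were 0.677 ± 0.673, 0.260 ± 0.269 and 1.71 ± 1.88 CPM (SD, n = 6 each). All 3 groups overlapped. Replicate 6, with 251 counts, raised the homozygous mean, but the medians stood in the same order, at 0.444, 0.194 and 1.12 CPM in control, heterozygous and homozygous mice. Homozygous and heterozygous mice differed by 1.45 CPM, with a two-sided exact permutation p of 0.0195 and an adjusted p of 0.117 over the 6 tests of *Retnlb* and *Pla2g2a*. Without homozygous replicate 6 the difference was 0.714 CPM. The sister gene *Retnla* stood at a mean of 1.18 to 2.46 CPM in the 3 genotypes, and it was below the filter too. Of the 10 genes of the type 2 cytokine pathway, *Il4*, *Il5*, *Il13*, *Il25* and *Tslp* were below the filter and were not tested. The 5 tested were *Il33*, *Il4ra*, *Il13ra1*, *Stat6* and *Areg*. Of these, 0 had an unadjusted p under 0.05 in any comparison by edgeR or DESeq2. The lowest unadjusted p among them was 0.0840, for *Areg* in heterozygous against control mice (log2 fold change 0.52, edgeR).

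*Reg3b*, a C-type lectin active mainly against Gram-negative bacteria, ranged from 3322 to 9826 CPM in controls (median 4131), 3033 to 7221 CPM in heterozygous (median 4381) and 3783 to 8033 CPM in homozygous mice (median 6675). Of the homozygous libraries, 5 of 6 lay above 4 of 6 controls and above 5 of 6 heterozygous libraries, yet all groups overlapped. The log2 fold change was 0.29 ± 0.27 (SE) for homozygous against control mice, with a 95% interval of -0.29 to 0.87, and 0.46 ± 0.27 for homozygous against heterozygous mice, with an interval of -0.12 to 1.03. Adjusted p-values in edgeR were 0.825 and 0.648.

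*Reg3g*, the lectin that binds peptidoglycan and kills Gram-positive bacteria, followed the same pattern at a lower level. It ranged from 1465 to 4867 CPM in controls (median 1824), 867 to 3267 CPM in heterozygous (median 1909) and 2134 to 3527 CPM in homozygous mice (median 3108). Its log2 fold change was 0.33 ± 0.32 (SE) for homozygous against control mice (95% interval -0.34 to 1.01, adjusted p = 0.830, edgeR) and 0.64 ± 0.32 for homozygous against heterozygous mice (-0.04 to 1.31, adjusted p = 0.642). For heterozygous against control mice it was -0.30 ± 0.32 (-0.98 to 0.37).

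Control replicate 6 weighed heavily on both lectins. It held 9826 CPM of *Reg3b* and 4867 CPM of *Reg3g*, the highest of all 18 libraries, and it also held the lowest summed smooth muscle markers (682 CPM) and the highest summed enterocyte markers (28174 CPM). Without it, the log2 fold change for homozygous against control mice was 0.62 for *Reg3b* and 0.73 for *Reg3g* (unadjusted p = 0.0146 and adjusted p = 0.493 for both, edgeR), and for heterozygous against control mice it turned from -0.17 to 0.16 for *Reg3b* and from -0.30 to 0.09 for *Reg3g*. With the smooth muscle score as a covariate and all libraries kept, the homozygous difference from controls was 0.50 for *Reg3b* and 0.55 for *Reg3g* (adjusted p = 0.862 and 0.907). Other settings made it smaller. Without control replicate 2 it was 0.18 for *Reg3b* and 0.22 for *Reg3g* (unadjusted p = 0.524 and 0.511, edgeR), and with the B cell score as a covariate it was 0.19 and 0.20 (unadjusted p = 0.484 and 0.533).

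The spread of these 2 genes between mice of one genotype was among the widest in the tissue. The SD of log2 CPM within genotypes was 0.591 for *Reg3g* and 0.501 for *Reg3b*, at the 94.0 and 91.7 percentiles of the 12645 genes tested, whose median was 0.185. *Reg4* (0.374, percentile 85.1) came next, then *Reg3a* (0.269, 72.7) and *Ang4* (0.267, 72.2). *Mmp7* (0.228, 64.2), *Itln1* (0.213, 59.8) and *Lyz1* (0.194, 53.3) varied little more than the median gene. From the lowest to the highest of the 18 libraries, *Reg3g* differed by 5.62 times and *Reg3b* by 3.24 times, while *Lyz1*, *Mmp7*, *Ang4* and *Itln1* each differed by less than 2 times.

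*Reg3a*, a further lectin of the cluster, ranged from 63.2 to 81.8 CPM in controls (median 71.0), 55.4 to 125 CPM in heterozygous (median 79.1) and 48.0 to 83.2 CPM in homozygous mice (median 66.0). The heterozygous group held its highest value and the homozygous group its lowest, with all groups overlapping. Heterozygous replicate 3, which had the highest *Reg3a* (125 CPM), had the lowest *Reg3b* and *Reg3g* of all libraries. The log2 fold change of *Reg3a* was -0.33 ± 0.15 (SE) between homozygous and heterozygous mice (95% interval -0.64 to -0.03, unadjusted p = 0.0340, adjusted p = 0.642, edgeR). It was -0.19 without heterozygous replicate 3 and -0.21 with the smooth muscle score as a covariate (unadjusted p = 0.136 and 0.192).

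Within 98215 bases on chromosome 6, expression of the Reg genes differed by several orders of magnitude. *Reg3d*, between *Reg3b* and *Reg3a*, had medians of 1.82 to 2.23 FPKM in the 3 genotypes, and *Reg1* had medians of 4.05 to 4.54 FPKM. *Reg2* held 0 to 7 counts per library. These 3 neighbours stayed low in all 18 libraries, in which *Reg3b* was at 2656 to 8605 FPKM. None of the windows of 50 or 150 bases of *Reg3a*, *Reg3b*, *Reg3g* or *Reg4* occurred in another gene, so that the counts of the paralogs can be told apart.

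**Figure D3:**
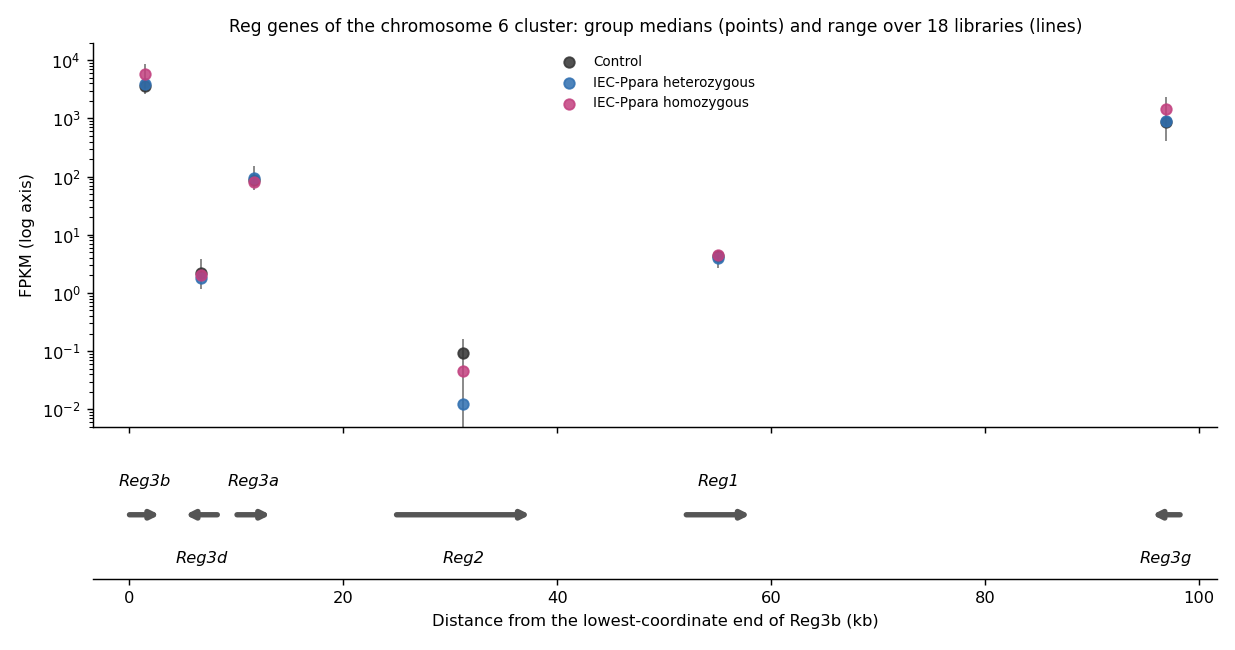
Upper plot, FPKM (log axis) of the 6 Reg genes of the chromosome 6 cluster, with points at the median of each genotype and lines over the range of the 18 libraries, the line of *Reg2* running to 0 below the axis. Lower plot, the genes as arrows in the direction of transcription by distance in kilobases from the start of *Reg3b*. *Reg3b* (medians of 3617 to 5845 FPKM) and *Reg3g* (863 to 1470 FPKM) stand at opposite ends with near-silent *Reg2* between them.

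*Reg4*, a Reg protein encoded apart from the cluster, is known from enteroendocrine, goblet and deep crypt secretory cells. With all 18 libraries kept, it had the largest fold difference between homozygous and control mice among the 8 members in the fit. It ranged from 55.1 to 158 CPM in controls (median 113), 105 to 187 CPM in heterozygous (median 134) and 140 to 200 CPM in homozygous mice (median 160). Means were 113 ± 35.6, 144 ± 34.6 and 167 ± 27.4 CPM (SD, n = 6 each), in the order of the allele dose. Of the homozygous libraries, 3 were above every control and 3 lay within the control range, and all 3 groups overlapped. The log2 fold change was 0.58 ± 0.20 (SE) for homozygous against control mice, with a 95% interval of 0.17 to 0.99, which is 1.49-fold with an interval of 1.13-fold to 1.99-fold (unadjusted p = 0.00816, adjusted p = 0.397, edgeR). For heterozygous against control mice it was 0.38 ± 0.19 (-0.03 to 0.79), and for homozygous against heterozygous mice 0.20 ± 0.19 (-0.21 to 0.61), or 0.12 without heterozygous replicate 6. In 11 of 11 alternative fits and with any of the 18 libraries left out, the homozygous difference had an unadjusted p under 0.05, and its smallest value, 0.46, came without control replicate 6. Without that library *Reg3b* (0.62) and *Reg3g* (0.73) differed more than *Reg4*. The smallest adjusted p of *Reg4* among these settings was 0.136, with DESeq2.

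Some members varied together from mouse to mouse. *Reg3b* and *Reg3g* were tied most closely, with r = 0.948 (Pearson) and rho = 0.957 (Spearman) of log2 CPM over the 18 libraries (permutation tests, both with p = 1e-05, as low as 100000 permutations allow, and adjusted p = 0.00036 over 36 pairs). Among controls alone r was 0.986, among heterozygous mice 0.972 and among homozygous mice 0.944, and r was 0.936 once the 2 most extreme libraries of *Reg3b* were left out. *Reg3b* was counted 2.02 to 2.52 times as often as *Reg3g* in controls, 2.13 to 3.50 times in heterozygous and 1.77 to 2.46 times in homozygous mice. No comparison of this ratio passed the threshold, with exact permutation p-values of 0.236, 0.221 and 0.0541 for homozygous against control, heterozygous against control and homozygous against heterozygous mice (adjusted p = 0.283 for each over 6 ratio tests).

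*Itln1* was in both of the other pairs that passed by r. *Mmp7* and *Itln1* had r = 0.771 and rho = 0.697 (permutation tests, adjusted p = 0.00684 and 0.0324), with r = 0.483 in controls, 0.945 in heterozygous and 0.942 in homozygous mice, and r = 0.579 without the 2 libraries farthest from the median. *Lyz1* and *Itln1* had r = 0.751 (permutation test, adjusted p = 0.00936), but rho = 0.573 (adjusted p = 0.0865). Without the 2 farthest libraries their r was 0.467, and it was 0.140 within heterozygous mice against 0.844 in controls and 0.892 in homozygous mice. This relation thus rests in part on the libraries extreme in *Lyz1*. *Lyz1* and *Mmp7*, both of the Paneth granule, did not pass, with r = 0.453 and rho = 0.127 (permutation tests, adjusted p = 0.203 and 0.738), and r = -0.02 without the 2 farthest libraries. Homozygous replicate 3 was the lowest of all 18 libraries for *Lyz1*, *Mmp7*, *Itln1* and *Pla2g2a*. Of the 36 pairs, *Reg3b* with *Reg3g* and the 2 pairs with *Itln1* passed an adjusted p of 0.05 by r, all of them positive. By rho, *Reg3b* with *Reg3g* and *Mmp7* with *Itln1* passed again, and *Ang4* with *Itln1* passed as well, with rho = 0.662 (permutation test, adjusted p = 0.0454) and r = 0.613 (adjusted p = 0.0535). With genotype means subtracted, the 3 pairs that passed by r did so again, and *Reg3g* with *Reg4* passed as well, with r = -0.683 (permutation test, adjusted p = 0.0175). That last relation turned with the libraries used. Over all 18 libraries without centring, *Reg3g* and *Reg4* had r = -0.321 (permutation test, adjusted p = 0.412), with -0.887 in controls, -0.751 in heterozygous and 0.530 in homozygous mice, and r was 0.238 without the 2 farthest libraries. Control replicate 6 held both the highest *Reg3g* and the lowest *Reg4*. *Reg3a* and *Reg3g* did not pass, with r = -0.606 (permutation test, adjusted p = 0.0535, and 0.0793 with genotype means subtracted), and within-genotype r of -0.784 (controls), -0.677 (heterozygous) and -0.03 (homozygous), and r was -0.379 without the 2 farthest libraries.

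**Figure D4:**
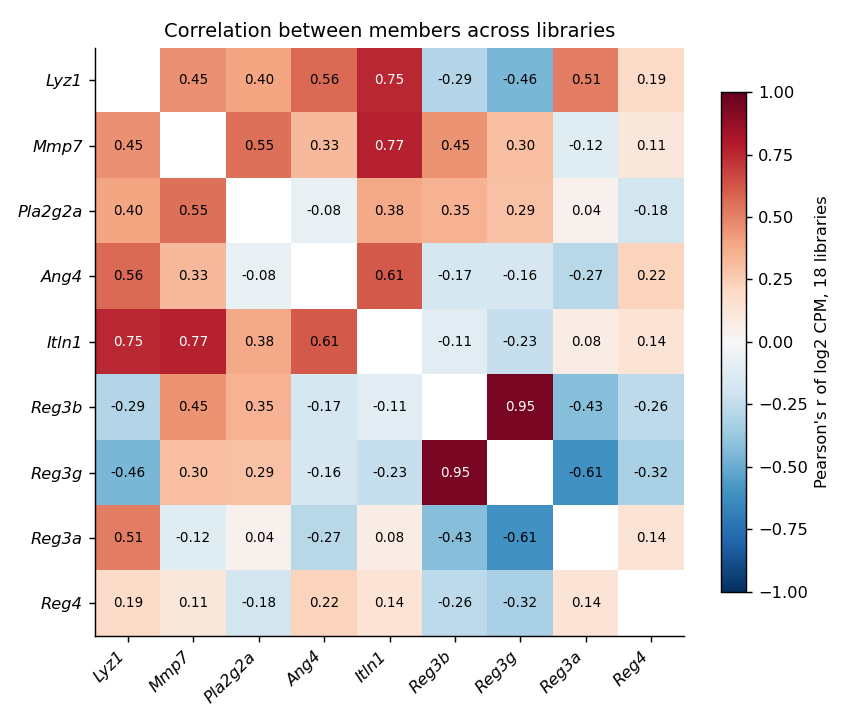
Pearson's r of log2 CPM between 9 members (all but *Retnlb*) over the 18 libraries, from -1 (blue) to 1 (red). *Reg3b* and *Reg3g* stand out at 0.95, *Itln1* is tied to *Mmp7* (0.77) and *Lyz1* (0.75). The lowest value, of *Reg3g* with *Reg3a* (-0.61), did not pass the test.

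**Figure D5:**
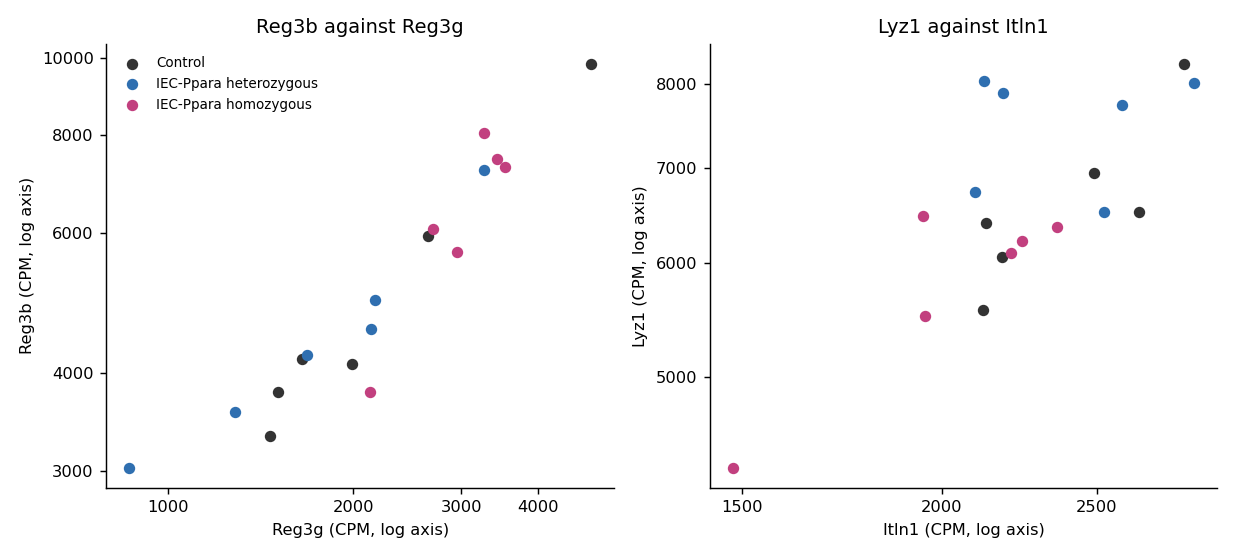
CPM of *Reg3b* against *Reg3g* (left) and of *Lyz1* against *Itln1* (right) on log axes, with 1 point per library coloured by genotype. The *Reg3b* and *Reg3g* points fall along a line in all 3 genotypes, from heterozygous replicate 3 (867 CPM of *Reg3g*) to control replicate 6 (4867 CPM), while the heterozygous libraries lie above the homozygous ones in *Lyz1* at like levels of *Itln1*.

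The protein-coding genes whose log2 CPM ran most like *Lyz1* over the 18 libraries, out of 12637 compared, were *Defa26* (r = 0.899), *Clps* (0.871), *Cdkn2aip* (0.856), *Defa22* (0.824) and *Defa21* (0.823). Of these 5, 3 encode α-defensins, which are packed in the same granules as lysozyme, and *Clps* encodes colipase, a cofactor of pancreatic lipase. All 5 were lowest in homozygous replicate 3, and within heterozygous mice r with *Lyz1* was 0.538 for *Defa26*, 0.376 for *Clps*, 0.530 for *Cdkn2aip*, 0.086 for *Defa22* and 0.021 for *Defa21*. *Clps* ranged from 76.9 to 137 CPM, while the 11 pancreatic acinar markers summed to 3.96 to 7.25 CPM and 10 of them (*Prss2*, *Cpa1*, *Pnlip* and others) were at 0 in at least 1 library. *Defa26* ranged from 52.7 to 71.7 CPM in controls, 68.6 to 79.3 in heterozygous and 42.6 to 64.9 in homozygous mice. Its IEC-*Ppara* groups did not overlap, as for *Lyz1*, but it was chosen for its likeness to *Lyz1* over these libraries, and 0.269% of all genes separated in this way.

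For *Reg3g*, the most alike genes besides *Reg3b* were *Saa1* (r = 0.934), *Gsr* (0.865), *Mal* (0.859), *Car4* (0.841) and *Pla2g5* (0.838). *Saa1*, a serum amyloid A that the ileal epithelium makes on contact with bacteria, spanned 1.92 to 124 CPM, and its lowest and highest libraries were those of *Reg3g*, heterozygous replicate 3 and control replicate 6. Its medians were 30.5 CPM in controls, 28.7 CPM in heterozygous and 82.1 CPM in homozygous mice, with overlapping ranges. For *Reg4* they were *Phlda1* (0.820), *Hoxb8* (0.802), *Snx14* (0.792), *Rnd3* (0.782) and *Acaa2* (0.780), all lowest in control replicate 6. Within homozygous mice only *Phlda1* remained above 0.5 with *Reg4* (r = 0.732), the others lying between -0.406 and 0.012. These values are descriptions of the most alike genes among 12637, over libraries that differ in tissue makeup.

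Other genes of the same defence were read from lists of known genes. Of 36 other secreted antimicrobial and family genes, 24 were tested and edgeR called 0 in any comparison. It had 4, 0 and 4 at an unadjusted p under 0.05 for homozygous against control, heterozygous against control and homozygous against heterozygous mice. Of all genes, 8.06%, 5.29% and 7.61% had such a p. DESeq2 called 2, *Mptx2* and *Leap2*, in homozygous against control mice, where it called 1.08% of all genes. In that comparison, 11 of the 24 were higher and 13 lower, with a median log2 fold change of -0.01. *Mptx2*, a pentraxin of Paneth cells, ranged from 154 to 348 CPM in controls, 85.4 to 234 in heterozygous and 44.2 to 136 in homozygous mice. Its homozygous libraries lay wholly below the controls, a separation seen in 0.854% of all genes in this comparison, while the share was 0.467% for heterozygous against control mice. Its lowest library was homozygous replicate 3 and its highest was control replicate 6. These held the highest and the lowest summed smooth muscle markers of all libraries. The log2 fold change of *Mptx2* for homozygous against control mice was -1.08 (unadjusted p = 0.00110, adjusted p = 0.142, edgeR). *Leap2*, which encodes a liver and intestinal peptide, averaged 3.66 CPM in controls, 3.56 CPM in heterozygous and 1.30 CPM in homozygous mice (log2 fold change against controls -1.49, adjusted p = 0.118, edgeR).

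Genes that specify Paneth cells were read next. Of 18 genes for Paneth cell differentiation and niche, 16 were tested, with 0 called by edgeR or DESeq2. Over all 3 comparisons 1 had an unadjusted p under 0.05 in edgeR, where 5.29% to 8.06% of all genes had such a p. In homozygous against control mice, 6 of the 16 were higher and 10 lower, with a median log2 fold change of -0.13. *Atoh1* averaged 45.3, 48.3 and 48.2 CPM and *Sox9*, required for Paneth cells to form, 45.8, 46.3 and 42.4 CPM in control, heterozygous and homozygous mice. *Wnt3*, the Paneth ligand for stem cells, averaged 11.7, 10.7 and 9.95 CPM (unadjusted p = 0.0563 for homozygous against control, edgeR). All 11 genes for lysozyme packaging and secretory autophagy were tested, with 0 called by edgeR or DESeq2. The only unadjusted p under 0.05 among them was that of *Irgm1* in heterozygous against control mice (0.0368, log2 fold change -0.43, edgeR).

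The pathway that induces *Reg3b* and *Reg3g* was read in 23 genes, of which 18 were tested and 0 called by edgeR or DESeq2. EdgeR had 3, 1 and 5 at an unadjusted p under 0.05 in the 3 comparisons. Of all genes, 8.06%, 5.29% and 7.61% had such a p. For homozygous against control mice, 8 of the 18 were higher and 10 lower, with a median log2 fold change of -0.0055. The cytokines themselves were scarcely counted, with *Il22* at 0 in 8 libraries and *Il17a* at 0 in 17. *Stat3* ranged from 164 to 242 CPM in controls, 169 to 231 in heterozygous and 195 to 255 in homozygous mice, with a log2 fold change of 0.22 for homozygous against control mice (unadjusted p = 0.0329, adjusted p = 0.585, edgeR). *Fut2*, the fucosyltransferase that this pathway induces in enterocytes, had medians of 5.98, 9.35 and 19.6 CPM, with a log2 fold change of 1.26 (unadjusted p = 0.0238, adjusted p = 0.551, edgeR). *Il10rb*, the shared receptor chain of interleukin-22, had a log2 fold change of -0.16 between homozygous and heterozygous mice (unadjusted p = 0.00542, adjusted p = 0.536, edgeR).

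Markers of other cell types were read beside the members. In homozygous against control mice, all 10 smooth muscle and all 10 fibroblast markers had positive log2 fold changes, with medians of 0.57 and 0.35, and all 12 B cell and all 7 tested T cell markers had negative ones, with medians of -3.03 and -0.93. EdgeR called 0 in each list, with 0, 2, 12 and 7 at an unadjusted p under 0.05, and DESeq2 called 3 T cell markers. Of all genes in this comparison, 8.06% had such a p in edgeR, and DESeq2 called 1.08%. Of 10 stem cell markers, from the cells beside Paneth cells, 6 were lower and 4 higher, with a median of -0.04. EdgeR called 0 of them and had 3 at an unadjusted p under 0.05, *Olfm4* (-0.42, adjusted p = 0.0942), *Axin2* (-0.19, adjusted p = 0.507) and *Rnf43* (-0.23, adjusted p = 0.516), and DESeq2 called *Olfm4* (adjusted p = 0.00762). Of 9 enterocyte markers tested, both tools called *Fabp2*, a fatty acid binding protein, as higher (0.94, adjusted p = 0.00116, edgeR). The B cell fold change rests on a few high libraries, since these markers summed to 19.4 to 656 CPM in controls, with a median of 23.5, and to 14.4 to 106 CPM in homozygous mice, with a median of 17.5. The 12 goblet cell markers, from cells that also make *Itln1* and *Reg4*, split 6 higher and 6 lower, with a median of -0.01. Between the IEC-*Ppara* groups, 11 of 12 epithelium markers and 10 of 12 goblet markers were lower in homozygous mice, with medians of -0.09 and -0.14, in the direction of *Lyz1*, *Itln1*, *Ang4* and *Reg3a*. In the fit with the epithelium score as a covariate, *Itln1* was at -0.20 and *Reg3a* at -0.27 (unadjusted p = 0.0904 and 0.0817, edgeR). The same fit had 3 of the 8 members at an unadjusted p under 0.05, where 653 of all genes had such a p. These were *Lyz1*, lower in homozygous mice, and *Reg3b* and *Reg3g*, both higher. The part of the fibroblast, T cell, stem cell and goblet markers in the members' values was not tested.

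Females and males were compared by an interaction term, which asks whether the genotype difference is unlike in the sexes. Among the 8 members the adjusted p ranged from 0.797 to 1.00 in edgeR, and 0 of all genes were called, with 905 and 258 genes at an unadjusted p under 0.05 for heterozygous and homozygous against control mice (0 of the 8 members). These groups held 2 or 3 females each. With sex as a covariate, the *Lyz1* difference between the IEC-*Ppara* groups was -0.38 and the *Reg4* difference of homozygous mice from controls was 0.60.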

How the data were processed

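RNA was extracted from full-thickness ileum, poly-A selected and sequenced as paired reads of 150 bases. Per the submitters' processing notes, reads were aligned with STAR to GRCm38 and counted per gene with featureCounts against Ensembl annotation. The authors deposited raw counts. Their deposited CPM values equal each count over the library total, the deposited FPKM values also divide by gene length, and the deposited log2 CPM values are moderated by a prior count.

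The threshold that the study names (over 3 CPM in 4 or more libraries) left 13709 genes of these 18 libraries, of which 12645 are protein-coding. The methods of the study state smaller numbers, and the reason is not given in the sources used here. These were fitted in R 4.3.3 by the quasi-likelihood test of edgeR 4.0.16 with TMM scaling, on all 18 libraries together and without covariates. Adjusted p-values (Benjamini-Hochberg) are over the 12645 genes. Intervals are 95% intervals of the fold change, from its SE. Replicates are separate mice. *Retnlb* and *Pla2g2a* and the ratios were compared by two-sided exact permutation of 6 against 6 libraries (924 arrangements). Correlations used log2 CPM (prior count 2) and 100000 permutations. The pipeline was tested on simulated counts. The members and gene lists were chosen with earlier results of these data known. Named genes are the members, list genes with the lowest p or paralogous to a member, and the 5 genes most correlated with *Lyz1*, *Reg3g* and *Reg4*. Genes named only as examples of a list or pathway were chosen after their values were seen.

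Alternatives were DESeq2 1.42.0, DESeq2 size factors, no TMM, no filter, the 12 libraries compared, sex, the replicate number, or marker scores as covariates, all biotypes (chosen after seeing the data), log2 CPM for permutation tests, and leaving out each library. Promoters came from RefSeq. Read sharing was checked by exact windows of 50 and 150 bases in GENCODE transcripts. Same-numbered libraries were checked for likeness, a check that cannot exclude pairing by litter or batch.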

Additional observations from a re-analysis of the deposited data

Results flagged for a closer look

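In 30 groups of 6 libraries (10 members, 3 genotypes), 2 held a library far from the others by Dixon's test at 95%, where chance gives about 1 in 20. *Reg3g* in control replicate 6 was at 4867 CPM, while the other 5 controls lay between 1465 and 2643 CPM, so that its gap to the nearest was 0.654 of the range. *Retnlb* in homozygous replicate 6 was at 5.38 CPM, while the others lay between 0.0931 and 1.76 CPM (0.684 of the range).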

How the results depend on the processing

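None of the 8 members in the fit passed an adjusted p of 0.05 in edgeR or DESeq2 under the 11 alternatives or with any of the 18 libraries left out. *Retnlb* was fitted without the filter only and *Pla2g2a* with all biotypes only. Of the fold changes of the members in the fit, 8 under the alternatives and 14 with a library left out changed sign, while 256 and 418 kept their direction and their side of the threshold. The genes called over the whole table moved more. DESeq2 called 136 and 82 genes between homozygous or heterozygous mice and controls, and 9 between the IEC-*Ppara* groups. For heterozygous against control mice, 23 genes were called with only the 12 libraries compared and 22 with the replicate block. For homozygous against heterozygous mice, 0 genes were called with DESeq2 size factors, no filter, the 12 libraries compared, sex, the replicate block, the smooth muscle or B cell score, or all biotypes, and 0 to 2 with a library left out. The cause was not tested.

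Values near 0 changed sign. *Mmp7* was at 0.0044 with sex and 0.0057 with the smooth muscle score for homozygous against control (-0.092 to 0.065 with a library left out), at -0.014 without TMM, -0.00077 with the B cell score and -0.038 with the epithelium score for heterozygous against control (-0.030 to 0.060), and at 0.019 with the epithelium score for homozygous against heterozygous mice (-0.10 to 0.055). *Itln1* for heterozygous against control was at -0.0021 without TMM and -0.019 with the epithelium score (-0.020 to 0.081). With a library left out, heterozygous against control ranged from -0.33 to 0.16 for *Reg3b* and from -0.51 to 0.094 for *Reg3g*, above 0 only without control replicate 6. *Pla2g2a* differed by -5.7e-05 on the log2 scale for homozygous against heterozygous mice. With a library left out, its CPM differences ranged from -3.55 to 2.95 for homozygous against control, -5.51 to 1.67 for heterozygous against control and -2.77 to 4.74 for homozygous against heterozygous mice.

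With genotype means subtracted, same-numbered libraries had correlations of -0.606 to 0.644, and 3 of 18 were most like their own number. This check cannot exclude pairing by litter or batch, because the libraries also differ in tissue makeup. With the replicate block (exact sign-flip test), the *Retnlb* difference of 1.45 CPM between the IEC-*Ppara* groups had p = 0.0938 and the *Reg3b* to *Reg3g* log2 ratio of -0.11 for homozygous against control had p = 0.0313, and no member was called in edgeR. With a library left out, the former ranged from 0.714 to 1.77 CPM (exact permutation p = 0.0022 to 0.0606) and the log2 ratio for homozygous against heterozygous mice from -0.32 to -0.17 (0.0281 to 0.123). *Retnlb* rests on 0 to 251 counts per library, and the effect of depth was not tested.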
